A study of Mus musculus with 6 samples.

Results

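The Myc, Max and Mxd network was followed in DN3a thymocytes of mice that carry a GATA3 transgene and of wild-type mice. DN3a cells are T cell precursors without CD4 and CD8 that are rearranging the T cell receptor beta genes and have not yet passed beta-selection. The network was taken as 9 genes chosen by symbol, Myc, Mycn, Max, Mxd1, Mxd3, Mxd4, Mxi1, Mnt and Mlx, out of 41254 gene symbols in the deposited table, with the transcripts of each symbol summed. All 9 were abundant enough to be tested, among 14653 genes that were. The tested group held 3 libraries of genotype Tg_Cd2_GATA3 and the control group 3 libraries of wild type, all from adult C57BL/6 animals, with total RNA depleted of ribosomal RNA. The genotype name ties the transgene to Cd2, a gene of T and natural killer cells, and the construct is not described in the sources used here. GATA3 is a transcription factor needed for T cell development, and the study's title concerns its amount in allelic exclusion at the T cell receptor beta genes.

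Myc and its relative Mycn are transcription factors that work only when paired with Max. The pairs bind the DNA sequence CACGTG, called the E-box, and raise the output of genes for ribosome assembly, nucleotide synthesis and metabolism. The Mxd proteins (Mxd1, Mxi1, Mxd3 and Mxd4) and Mnt also pair with Max, occupy the same sites and bring the Sin3 corepressor with its histone deacetylases. Mlx is a second hub, which pairs with some Mxd proteins, with Mnt and with the nutrient-sensing factor Mlxip. In the thymus Myc is known for driving the growth of precursors as they pass beta-selection, downstream of Notch and pre-T cell receptor signals.

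Some network genes have the E-box letters close to their own start. In the 250 bases before the RefSeq start (GRCm38.p6), CACGTG was found for 3 of the 8 members with a sequence in the RefSeq table used here, against 6.86% of the 27025 genes with one and 9.68% of those also tested. The motif reads the same on both strands, and the 3 stretches are shown because they are the network's own recognition sequence, with the capitals marking CACGTG. The site began 219 bases before the start for Mxd4 (chr5:34187902-34187951, minus strand), 123 bases before it for Mnt (chr11:74830779-74830828, plus strand) and 40 bases before it for Mlx (chr11:101087228-101087277, plus strand). Mycn, Max, Mxd1, Mxd3 and Mxi1 did not hold these letters in the windows searched, and no sequence was matched for Myc. A match is a description of the sequence and not a measured binding site.
Mxd4: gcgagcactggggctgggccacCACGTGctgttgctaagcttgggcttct
Mnt: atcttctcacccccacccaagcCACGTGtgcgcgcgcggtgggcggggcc
Mlx: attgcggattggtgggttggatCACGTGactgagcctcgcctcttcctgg

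The 6 libraries held 39022281 to 46985605 fragments, and the 9 genes had from 728 to 14611 fragments in a library, so counting error was at most 3.71%. The labels do not state whether the libraries of a group are separate animals. In each group 1 library differed from the others in Y-linked RNA (counts below), so a group was not made of repeats of 1 RNA sample. Whether the libraries without Y-linked RNA come from separate animals is unknown. A p-value here reflects how far the libraries differ, and some of that difference can be technical. Gata3, the gene of the transgene, was at 53.6 to 61.6 CPM in transgenic libraries and 38.2 to 49.1 CPM in wild-type libraries (CPM is fragments relative to the scaled library total; log2 fold change 0.41; edgeR, adjusted p = 0.17). Transgenic replicate 3 and wild-type replicate 1 carried 16840 and 18522 fragments of 4 Y-linked genes and the others 16 to 26, so each group held 1 library with Y-linked RNA, and results are also given without this pair. All 10 DN3a markers fixed for the check, such as Rag1, Il2ra and Ptcra, were abundant enough to be tested. Their summed level was 6645 to 6896 CPM in transgenic and 6155 to 6826 CPM in wild-type libraries. Summed marker levels are relative to the unscaled library total. Single DN3a markers went both ways. Groups did not overlap for Notch1 and Notch3 on the higher side and Il2ra on the lower side, against 8.73% and 10.1% of all genes. Their log2 fold changes were 0.19, 0.31 and -0.17 (edgeR, adjusted p of 0.22, 0.16 and 0.23). DESeq2 called Notch1 and Notch3 higher, against 1.72% of the genes it adjusted. Markers of other cell types were mixed. Foxn1 of thymic epithelium had 0 to 4 fragments and Ncr1 of natural killer cells none in every library. Epcam, of the epithelial list, was at 76.4 to 91.5 CPM in transgenic and 74.9 to 84.8 CPM in wild-type libraries, Nkg7, of the natural killer list, at 31.2 to 39.9 and 33.1 to 47.0 CPM, Cd79b, of the B cell list, at 45.5 to 55.7 and 42.5 to 50.7 CPM, and the myeloid gene Lyz2 at 19.7 to 21.8 and 16.3 to 20.4 CPM, in the same order of groups. The groups overlapped for these 4 genes, and their part in the results was not tested. Cd4, Cd8a and Cd8b1, which mark later thymocytes, had log2 fold changes of -0.89, -1.34 and -1.15, with no overlap between the groups (edgeR, adjusted p of 0.16, 0.22 and 0.16), while the summed level of all 7 later markers was 211 to 235 CPM in transgenic and 222 to 252 CPM in wild-type libraries. In RNA from bulk cells, fewer cells of a type and less RNA per cell cannot be told apart.

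No member of the network passed the test over all genes. Mxd4, the most abundant member, was measured 1.32-fold higher in transgenic cells, and Mxd3 at 0.812 of its wild-type level, each with no overlap between the groups. Myc, Mycn, Max, Mxd1, Mxi1, Mnt and Mlx lay between -0.08 and 0.12 on the log2 scale. In edgeR's quasi-likelihood test with Benjamini-Hochberg adjustment 0 of 9 members were called, against 0.0136% of all genes tested, and at an unadjusted p under 0.05 there was 1 member higher and 1 lower, against 5.71% and 7.7% of all genes. On the log2 scale 4 members lay above 0 and 5 below, against 50.2% and 49.8% of all genes. DESeq2 called 1 member higher, Mxd4, where it called 1.72% of the genes it adjusted higher and 3.36% lower. With Y-linked RNA as a covariate edgeR called 0 members, against 0.348% of all genes higher and 1.4% lower. Groups did not overlap for 1 member on the higher side and 1 on the lower side, against 8.73% and 10.1% of all genes.

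**Figure D1:**
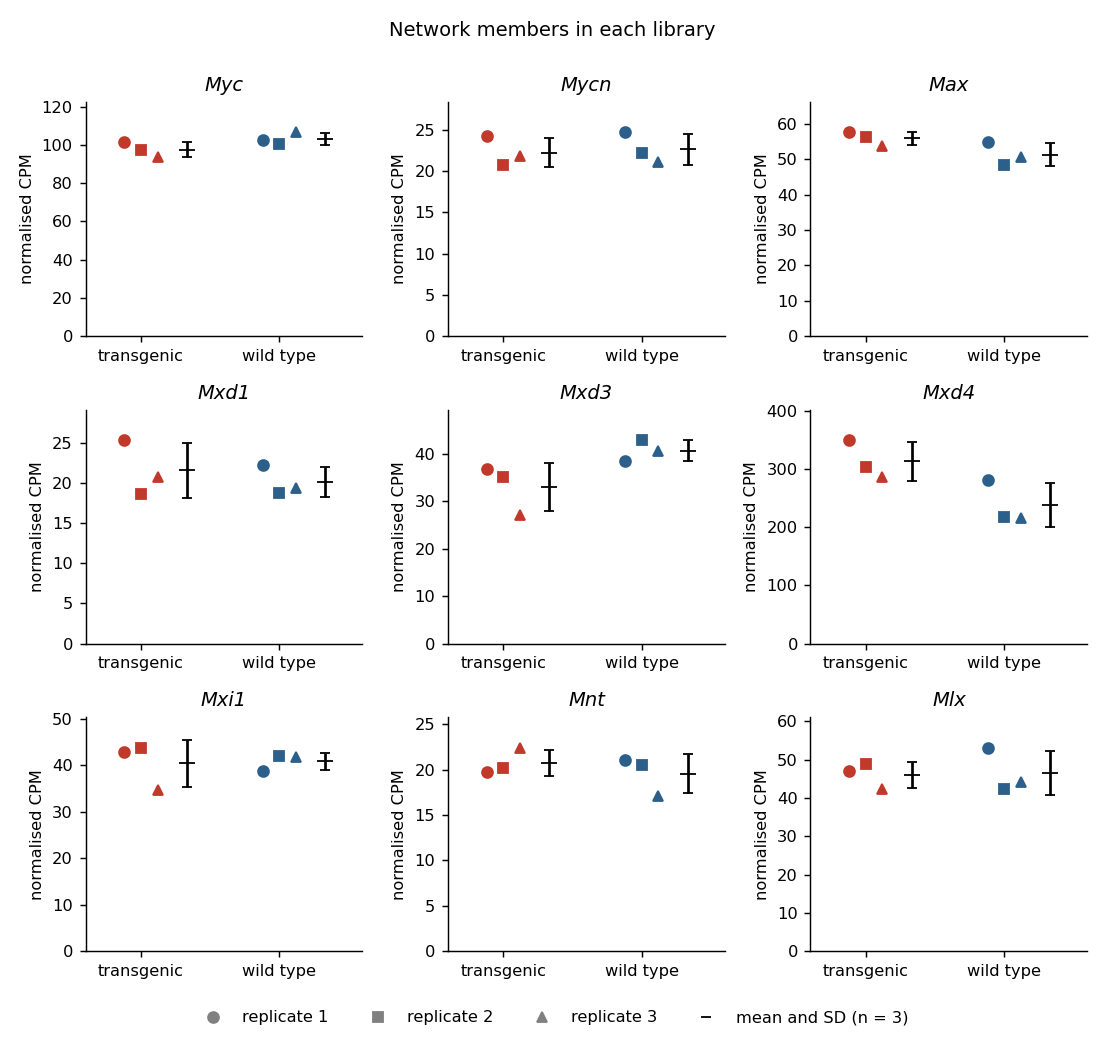
Normalised CPM (y axis, from 0) of the 9 network genes in each library of the transgenic (red) and wild-type (blue) groups, with the mean and SD of 3 libraries beside the points. Mxd4 lies at 286 to 350.1 CPM in transgenic and 216 to 281 CPM in wild-type libraries, and Mxd3 at 27.2 to 36.8 CPM and 38.5 to 43.0 CPM, while the groups overlap for the other 7 genes.

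Measured per transcript length, the antagonist Mxd4 stood above Myc in every library. Its summed level was 72.3 ± 5.59 FPKM in transgenic cells and 54.7 ± 6.40 FPKM in wild-type cells (SD, n = 3 each), and 90.1% of tested genes had a mean FPKM at or below that of Mxd4. Myc followed at 38.2 ± 0.82 FPKM in transgenic and 40.4 ± 2.84 FPKM in wild-type cells. The hubs Mlx (30.8 ± 1.92 and 29.2 ± 0.962 FPKM) and Max (29.0 ± 0.524 and 26.5 ± 1.37 FPKM, transgenic and wild type in each case) came next. Mlx and Max overlapped in transgenic libraries and did not in wild-type ones. The Mlx sum includes transcripts without an annotated coding frame, so its place in this order is not that of coding RNA alone. Mxd3 was at 20.3 ± 2.76 FPKM in transgenic cells, below all Max values there, and at 25.5 ± 1.67 FPKM in wild-type cells, where its range overlapped that of Max. Mycn (9.73 and 9.69 FPKM, transgenic and wild type) and Mxi1 (8.61 and 8.60 FPKM) overlapped in both groups. The Mycn sum also includes a transcript without an annotated coding frame, Mycn-203. It took 17.4 ± 3.97% of Mycn FPKM in transgenic and 14.3 ± 5.89% in wild-type cells (SD, n = 3 each). The lowest pair, Mxd1 (4.54 and 4.22 FPKM) and Mnt (3.66 and 3.67 FPKM), also overlapped in both.

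**Figure D2:**
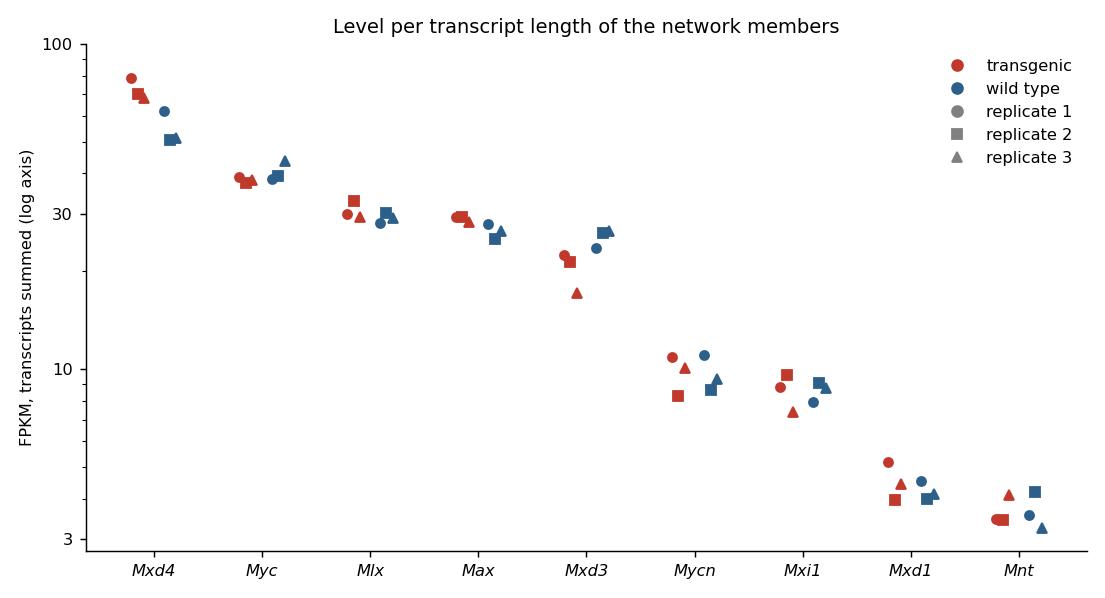
FPKM on a log axis, with the transcripts of a gene summed, of the 9 network genes ordered by their mean over the 6 libraries (red transgenic, blue wild type; marker shape gives the replicate). Mxd4 leads at 68.3 to 78.7 FPKM in transgenic and 50.6 to 62.0 FPKM in wild-type libraries, and Mnt is lowest at 3.43 to 4.10 FPKM and 3.24 to 4.20 FPKM.

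Of the activators, Myc (ENSMUSG00000022346, chromosome 15, 61985391 to 61990374, plus strand; positions here and below are from GENCODE M21 on GRCm38) is the family member best known in dividing thymocytes. In replicate order, it was measured at 101.8, 97.4 and 93.7 CPM in transgenic libraries, against 102.5, 100.5 and 106.7 CPM in wild-type libraries. Transgenic replicate 1 lay above wild-type replicate 2, so the groups overlapped. The means were 97.6 ± 4.06 and 103 ± 3.16 CPM (SD, n = 3 each), transgenic and wild type. The difference on the log2 scale was -0.08 ± 0.06 (SE; edgeR, adjusted p = 0.58). Its 95% interval ran from -0.20 to 0.04, which is 0.868 to 1.03 times the wild-type level.

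Mycn (ENSMUSG00000037169, chromosome 12, 12936093 to 12941914, minus strand) encodes a close relative of Myc that can stand in for it. Its values were 24.3, 20.7 and 21.8 CPM in transgenic libraries and 24.7, 22.2 and 21.1 CPM in wild-type libraries, fully overlapping. The log2 fold change was -0.03, with a 95% interval from -0.26 to 0.21 (edgeR, adjusted p = 0.95). Its sign turned without wild-type replicate 1, where it was 0.04, and without transgenic replicate 2, where it was 0.03. Set against Myc per length, Mycn was less abundant, at 4.77, 3.82 and 4.85% of the network's summed FPKM in transgenic libraries and 5.36, 4.37 and 4.61% in wild-type ones. Myc itself made up 17.1, 17.3 and 18.5% in transgenic libraries and 18.5, 19.9 and 21.5% in wild-type ones.

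Max (ENSMUSG00000059436, chromosome 12, 76937269 to 76962201, minus strand), the shared partner, was measured at 57.6, 56.2 and 53.8 CPM in transgenic libraries and 54.9, 48.5 and 50.6 CPM in wild-type libraries. Only transgenic replicate 3 fell inside the wild-type range. The difference on the log2 scale was 0.12 ± 0.08 (SE; edgeR, adjusted p = 0.54), and the 95% interval ran from -0.05 to 0.30.

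Max RNA came in both annotated forms, which differ by 1 short coding exon near the start of the protein. The exon is exon 2 of 5 in transcript ENSMUST00000110395 (chr12:76961263-76961289, minus strand), is missing from ENSMUST00000082136, and adds 9 codons after the 12th codon. It is printed because it is what separates the forms, in capitals between 15 bases of the exon on each side, from the GENCODE M21 transcript sequences.
Max exon 2: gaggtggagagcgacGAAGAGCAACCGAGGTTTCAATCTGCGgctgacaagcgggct
The form with the exon was estimated at 11.3, 11.4 and 12.8 FPKM in transgenic libraries and at 6.80, 10.1 and 8.88 FPKM in wild-type libraries, with no overlap between the groups. The form without it was at 18.0, 17.9 and 15.7 FPKM in transgenic libraries and 21.1, 15.1 and 17.7 FPKM in wild-type libraries. The longer form thus made up 40.8 ± 3.63% of Max FPKM in transgenic cells and 32.6 ± 7.81% in wild-type cells (SD, n = 3 each), and the shares of the groups overlapped. The authors' deposited table gives the longer form 0.46 on the log2 scale, with q = 0.998. The forms share all their other coding exons, so the division of fragments between them is an estimate. The share of all transcripts with groups that do not overlap was not computed.

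**Figure D3:**
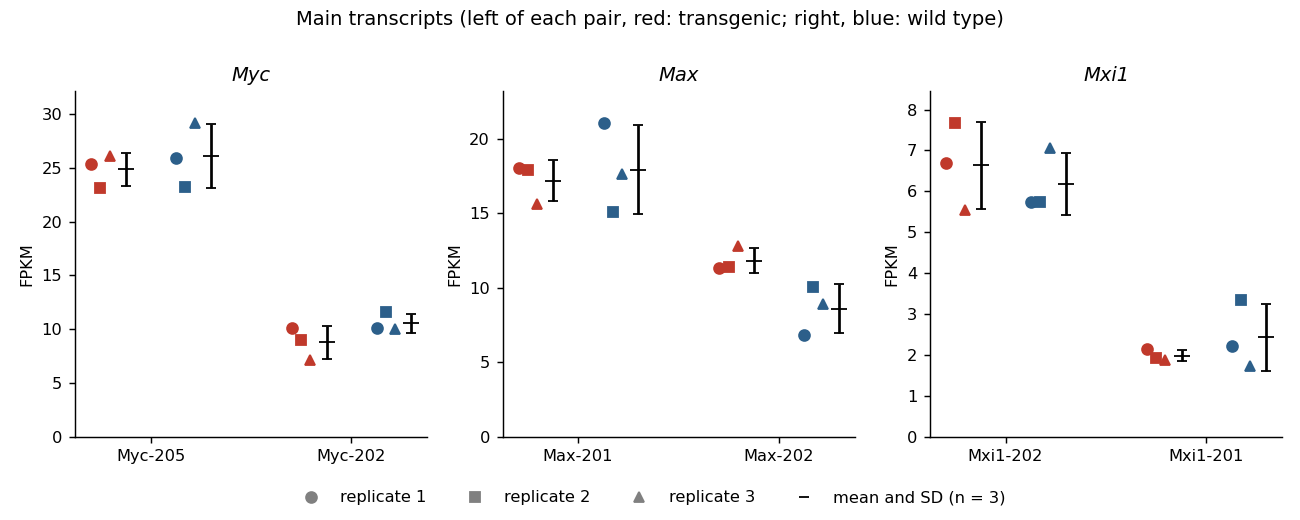
FPKM (y axis, from 0) of the main transcripts of Myc, Max and Mxi1 in each library, transgenic in red and wild type in blue, with the mean and SD of 3 libraries. The longer Max form, Max-202, lies at 11.3 to 12.8 FPKM in transgenic and 6.80 to 10.1 FPKM in wild-type libraries, while the groups overlap for Max-201, Myc-205, Myc-202 and both Mxi1 transcripts.

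For Myc, most of the signal was assigned to a pair of transcripts whose annotated starts lie 173 bases apart. The upstream one, Myc-205, was at 25.4, 23.1 and 26.1 FPKM in transgenic libraries and 25.9, 23.2 and 29.2 FPKM in wild-type libraries. The downstream one, Myc-202, was at 10.1, 9.02 and 7.12 FPKM in transgenic libraries and 10.1, 11.6 and 9.96 FPKM in wild-type libraries. Myc-205 held 64.97 ± 3.18% of Myc FPKM in transgenic and 64.5 ± 4.66% in wild-type cells (SD, n = 3 each), so the balance between the starts differed by less than the spread between libraries. Of the 31 transcripts of the 9 genes, 4 were listed at 0 in every library. None was marked significant in the authors' deposited table, where 111 of all 100144 transcripts were.

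Mxd4 (ENSMUSG00000037235, chromosome 5, 34173883 to 34187720, minus strand), a Max-binding repressor expressed in cells that are leaving the cycle, gave the largest difference among the 9 genes. It was measured at 350.1, 304 and 286 CPM in transgenic libraries, against 281, 217 and 216 CPM in wild-type libraries. The groups did not overlap, but the gap between transgenic replicate 3 and wild-type replicate 1 was small. The means were 313 ± 33.1 CPM in transgenic and 238 ± 37.3 CPM in wild-type cells (SD, n = 3 each), a difference of 0.40 ± 0.11 on the log2 scale (SE) with a 95% interval from 0.15 to 0.64. The difference did not pass over all genes in edgeR (adjusted p = 0.19). It passed in DESeq2 (adjusted p = 0.0038). In the authors' deposited table the main Mxd4 transcript stood at 0.40 on the log2 scale with the smallest q of any network transcript, 0.0848.

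The size of the Mxd4 difference depended on which libraries were compared. Without the pair with Y-linked RNA it was 0.59 on the log2 scale (edgeR, adjusted p = 0.0144), in a fit that called 0.432% of all genes higher and 1.32% lower, and between the libraries of that pair alone, 1 against 1, the difference of log2(CPM + 0.5) was 0.02. It was 0.53 when wild-type replicate 1 was left out (edgeR, adjusted p = 0.0159), where 0.992% of all genes were called higher and 2.32% lower. Mxd4 was higher in transgenic cells in all 17 alternatives, at 0.31 to 0.59 on the log2 scale, and was called in 3 of them, with adjusted p between 0.0038 and 0.55. Wild-type replicate 1 was also the wild-type library with the lowest level of 16 proliferation genes, at 0.005 (mean deviation on the log2 scale), against 0.31 and 0.34 in wild-type replicates 2 and 3, and transgenic libraries were at -0.21, -0.12 and -0.32. The part of proliferation in the Mxd4 difference was not tested.

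Mxd3 (ENSMUSG00000021485, chromosome 13, 55325168 to 55329823, minus strand), the Mxd gene known to be expressed in S phase, was measured in the other direction. Its values were 36.8, 35.3 and 27.2 CPM in transgenic libraries and 38.5, 43.0 and 40.7 CPM in wild-type libraries. The groups did not overlap, and transgenic replicate 3 lay apart from the other transgenic libraries. The difference on the log2 scale was -0.30 ± 0.12 (SE) with a 95% interval from -0.56 to -0.04, and it did not pass over all genes (edgeR, adjusted p = 0.30). DESeq2 did not call it either (adjusted p = 0.15). It was -0.18 without transgenic replicate 3, and over the 17 alternatives it stayed below 0, with adjusted p between 0.105 and 0.665. All 16 proliferation genes were below 0 in the same comparison, at a median of -0.47 on the log2 scale, and their part in the Mxd3 difference was not tested. Mxd3 shares 105 bases with Prelid1 on the opposite strand, which was at 105.7 to 117 CPM in transgenic and 120 to 125 CPM in wild-type libraries. Whether fragments were counted by strand is unknown here.

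**Figure D4:**
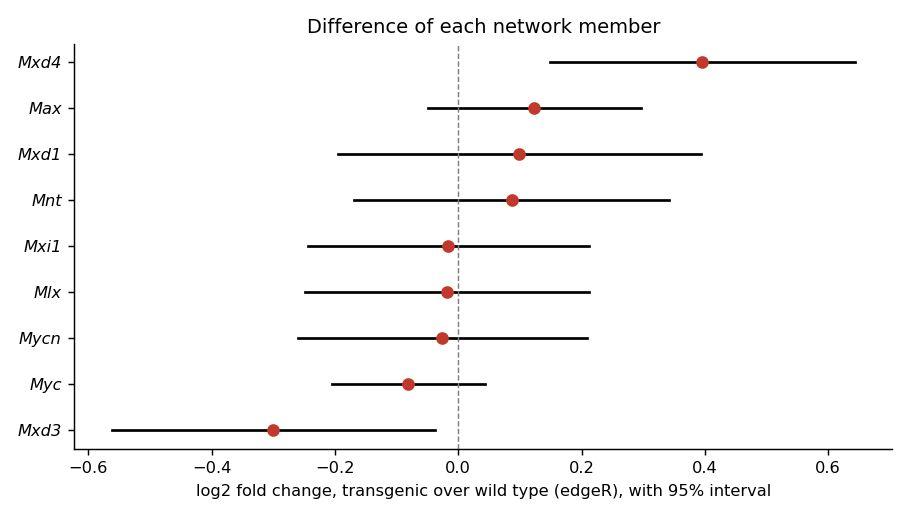
Log2 fold change of each network gene, transgenic over wild type, from edgeR (x axis; point) with its 95% interval (line). The interval lies above 0 for Mxd4 (0.15 to 0.64) and below 0 for Mxd3 (-0.56 to -0.04), holds 0 for the other 7, and none of the 9 passed after adjustment over all genes.

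The remaining repressors did not separate the groups. Mxd1 (ENSMUSG00000001156, chromosome 6, 86647042 to 86669161, minus strand), the founding Mxd gene, was measured at 25.3, 18.6 and 20.7 CPM in transgenic libraries and 22.3, 18.8 and 19.3 CPM in wild-type libraries. Its log2 fold change was 0.10, with a 95% interval from -0.20 to 0.39 (edgeR, adjusted p = 0.80), and it was -0.03 without transgenic replicate 1, the highest library. Mxi1 (ENSMUSG00000025025, chromosome 19, 53310518 to 53375810, plus strand), also called Mxd2, was measured at 42.7, 43.7 and 34.6 CPM in transgenic libraries and 38.8, 41.9 and 41.8 CPM in wild-type libraries. Transgenic replicate 3 was again the lowest of the 6. Its log2 fold change was -0.02, with a 95% interval from -0.24 to 0.21 (edgeR, adjusted p = 0.97), and without transgenic replicate 3 it was 0.08. It was also above 0, by less than 0.01, when wild-type replicate 2 or 3 was left out. Mnt (ENSMUSG00000000282, chromosome 11, 74830920 to 74845725, plus strand), a repressor found in most cells, was measured at 19.7, 20.2 and 22.4 CPM in transgenic libraries and 21.04, 20.6 and 17.1 CPM in wild-type libraries. Its log2 fold change was 0.09, with a 95% interval from -0.17 to 0.34 (edgeR, adjusted p = 0.80), and it was -0.003 without wild-type replicate 3, the lowest library.

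Mxi1 is transcribed from starts that lie 18940 bases apart in the annotation and give proteins with different first exons. The form from the downstream start, Mxi1-202, held 76.8 ± 2.72% of Mxi1 FPKM in transgenic cells and 71.9 ± 8.57% in wild-type cells (SD, n = 3 each). Its level was 6.69, 7.68 and 5.53 FPKM in transgenic libraries and 5.73, 5.74 and 7.05 FPKM in wild-type libraries. The groups overlapped for both forms.

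Mlx (ENSMUSG00000017801, chromosome 11, 101087277 to 101092207, plus strand), the second hub, was measured at 46.9, 48.7 and 42.3 CPM in transgenic libraries and 53.1, 42.4 and 44.2 CPM in wild-type libraries. Wild-type replicate 1 was the highest of the 6, and the groups overlapped. The log2 fold change was -0.02, with a 95% interval from -0.25 to 0.21 (edgeR, adjusted p = 0.96), and its sign turned without wild-type replicate 1, where it was 0.09, and without transgenic replicate 3, where it was 0.04. Per length, Mlx was at 29.97, 32.9 and 29.4 FPKM in transgenic libraries and 28.2, 30.1 and 29.1 FPKM in wild-type libraries. Only part of this came from transcripts annotated as coding, since Mlx-204, a transcript without an annotated coding frame, took 25.9 ± 7.65% of Mlx FPKM in transgenic and 17.9 ± 9.08% in wild-type cells (SD, n = 3 each). Mlx-206, also without such a frame, took 6.61 ± 7.85% in transgenic and 10.5 ± 5.7% in wild-type cells (SD, n = 3 each). Mlx shares 385 bases with Psmc3ip on the opposite strand, which was at 22.2 to 26.1 CPM in transgenic and 19.7 to 26.1 CPM in wild-type libraries.

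Set as a ratio of FPKM, Myc and Mycn together stood at 0.421, 0.421 and 0.477 of the summed antagonists Mxd1, Mxd3, Mxd4, Mxi1 and Mnt in transgenic libraries, and at 0.486, 0.508 and 0.563 in wild-type libraries. The groups did not overlap. The means were 0.44 ± 0.0323 in transgenic and 0.519 ± 0.0394 in wild-type cells (SD, n = 3 each). The numerator overlapped between the groups, at 49.9, 45.7 and 48.4 FPKM in transgenic and 49.5, 47.9 and 53.0 FPKM in wild-type libraries. The denominator was at 119, 108 and 101 FPKM in transgenic and 102, 94.1 and 94.2 FPKM in wild-type libraries, where transgenic replicate 3 lay just below wild-type replicate 1, so it overlapped too. Mxd4 alone made up 32.4 to 34.5% of the network's FPKM in transgenic and 25.3 to 29.9% in wild-type libraries. Both sums include transcripts without an annotated coding frame, such as Mycn-203 and Mxd3-203. RNA levels do not give the amounts of protein, and the ratio carries no test because its members were chosen with results known.

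Of the other partners, Mycl, the third Myc gene, had 0 to 5 fragments in a library, and Mlxipl, a glucose-responsive partner of Mlx, 0 to 20, so neither was tested. Mlxip, the nutrient-sensing partner of Mlx also called MondoA, averaged 63.9 ± 1.45 CPM in transgenic and 54.6 ± 0.963 CPM in wild-type cells (SD, n = 3 each), with no overlap (0.23 on the log2 scale; edgeR, adjusted p = 0.20). Mga, a large Max partner of repressor complexes, averaged 423 ± 8.16 CPM in transgenic and 389 ± 4.77 CPM in wild-type cells (SD, n = 3 each), again with no overlap (0.12 on the log2 scale; edgeR, adjusted p = 0.33).

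No cofactor was called by edgeR over the 6 libraries. Of 11 genes listed as coactivators or partners of Myc 6 were above 0 and 5 below, at a median of 0.01 on the log2 scale. Ruvbl2 and Ruvbl1, helicases of the TIP60 and INO80 complexes, had log2 fold changes of -0.23 and -0.17 (edgeR, adjusted p = 0.19 and 0.30), and DESeq2 called Ruvbl2 lower (adjusted p = 0.0497). Zbtb17, which encodes the Myc partner Miz1, and Trrap, a scaffold of acetyltransferase complexes, had values of 0.14 and 0.10 on that scale. Of 9 genes listed with the Sin3 corepressor, 7 lay below 0, with a median of -0.06. The list also holds the corepressor gene Ncor1, at -0.0013, which is 1 of these 7. The histone-binding subunits Rbbp7 and Rbbp4 had log2 fold changes of -0.23 and -0.17 (edgeR, adjusted p = 0.28 and 0.30), Hdac2 of -0.06 and Sap30 of 0.09. Without the pair with Y-linked RNA Rbbp7 was called lower, at -0.30 on the log2 scale (edgeR, adjusted p = 0.0384).

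Regulators of the Myc protein and gene were measured beside them. Of 9 turnover genes 4 lay above 0 and 5 below. Skp2, an ubiquitin ligase subunit that targets Myc and the cell cycle inhibitor p27, had a log2 fold change of -0.30, and Gsk3b, the kinase that marks Myc for decay, of 0.14 (edgeR, adjusted p = 0.20 and 0.25). Huwe1, another ubiquitin ligase, had a value of 0.07 on that scale. Of 10 regulators of Myc transcription 6 lay above 0, with a median of 0.09. Notch1, the receptor that drives Myc in early T cells, averaged 1802 ± 38.7 CPM in transgenic and 1585 ± 112 CPM in wild-type cells (SD, n = 3 each), without overlap (log2 fold change 0.19; edgeR, adjusted p = 0.22), and DESeq2 called it higher (adjusted p = 0.0378). It was also called higher with Y-linked RNA as a covariate and without the pair with Y-linked RNA (edgeR, adjusted p = 0.0337 and 0.0298). Maml1, a coactivator of Notch, Foxo1, a quiescence factor, and Lef1, a Wnt pathway factor, had log2 fold changes of 0.17, 0.28 and -0.31.

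Genes that Myc is known to activate were measured lower almost throughout. Of 38 such genes 37 were tested, since Slc7a5 lies at a locus with failed estimates. Of the 37, 36 were below 0, at a median of -0.17 on the log2 scale, where 49.8% of all genes tested lay below 0 and their median was 0.001. At an unadjusted p under 0.05, 22 were lower and 0 higher, where 7.7% and 5.71% of all genes were, and 20 had groups that did not overlap, all on the lower side, against 10.1% of all genes on that side. After adjustment over all genes edgeR called 0 of them, against 0.0136% of all genes, and DESeq2 called 12 lower, against 3.36%. Ccnd2, a cyclin of the G1 phase, was the 1 gene above 0, at 0.12. This list, like the other gene lists here, was chosen with earlier results of these data known. Its counts beside those of all genes are therefore a description and not a test.

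The examples span the known branches of the Myc program. Cad, the enzyme that starts pyrimidine synthesis, averaged 191 ± 3.43 CPM in transgenic and 235 ± 17.9 CPM in wild-type cells (SD, n = 3 each). Mthfd2, of mitochondrial folate metabolism, averaged 40.9 ± 4.10 CPM in transgenic and 55.1 ± 4.30 CPM in wild-type cells. Ldha, lactate dehydrogenase, averaged 552 ± 36.3 CPM in transgenic and 681 ± 42.5 CPM in wild-type cells. Ncl, nucleolin, a protein of ribosome assembly, averaged 359 ± 12.6 CPM in transgenic and 454 ± 49.3 CPM in wild-type cells. None of these 4 had overlapping groups, and their log2 fold changes were -0.30, -0.43, -0.30 and -0.34 (edgeR, adjusted p = 0.16 each). DESeq2 called these 4 and Odc1, Hspd1, Gart, Nolc1, Shmt2, Fbl, Npm1 and Pa2g4 lower, genes of polyamine and purine synthesis, mitochondrial folding and metabolism, and nucleolar function. Some of these genes have near-identical processed copies elsewhere in the genome, which can share their reads.

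By library, the mean deviation of the 37 target genes on the log2 scale was -0.14, -0.03 and -0.11 in transgenic libraries and -0.01, 0.15 and 0.13 in wild-type libraries. Wild-type replicate 1 lay closest to the transgenic libraries, as it did for Mxd4 and the proliferation genes. Without that library edgeR called 12 targets lower, among 349 genes (2.32%) called lower over the whole table, and without the pair with Y-linked RNA 6, among 196 (1.32%). The proliferation genes had a larger median difference, -0.47, against -0.17 for the targets, and their part in the target list was not tested. Cdc45, of replication origins, Rrm2, which supplies deoxynucleotides, and the mitotic genes Ccnb2 and Bub1b had log2 fold changes of -0.49, -0.53, -0.50 and -0.47 (edgeR, adjusted p of 0.13 to 0.16). Of the 16 proliferation genes 14 were called lower by DESeq2, 14 with Y-linked RNA as a covariate and 14 without the pair with Y-linked RNA. These 4 were called in each. Over all genes these fits called 3.36% (of the genes DESeq2 adjusted), 1.4% and 1.32% lower. Of immediate early and stress genes, a class that responds to cell handling, all 11 tested lay above 0, with a median of 0.48. Their mean deviation was 0.26, -0.04 and 0.77 in transgenic libraries and -0.21, -0.16 and -0.62 in wild-type libraries, and their part in the other results was not tested. Jund and Jun, AP-1 subunits, had log2 fold changes of 0.48 and 0.51, and the heat shock genes Hspa1b and Hspa1a, near-identical copies whose reads can be shared, of 1.75 and 1.99 (edgeR, adjusted p of 0.13 to 0.19). DESeq2 called Jund and Jun higher (adjusted p = 3.08e-05 and 0.000519).

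Genes that Myc represses with Miz1 gave few values. Gadd45a, a growth arrest gene, averaged 6.20 ± 1.20 CPM in transgenic and 4.25 ± 0.489 CPM in wild-type cells (SD, n = 3 each; log2 fold change 0.54; edgeR, adjusted p = 0.30). The inhibitors of cyclin-dependent kinases Cdkn1a, Cdkn1b and Cdkn2c had log2 fold changes of 0.14, 0.09 and -0.32, with overlapping groups, and 3 of the 4 tested genes lay above 0.

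**Figure D5:**
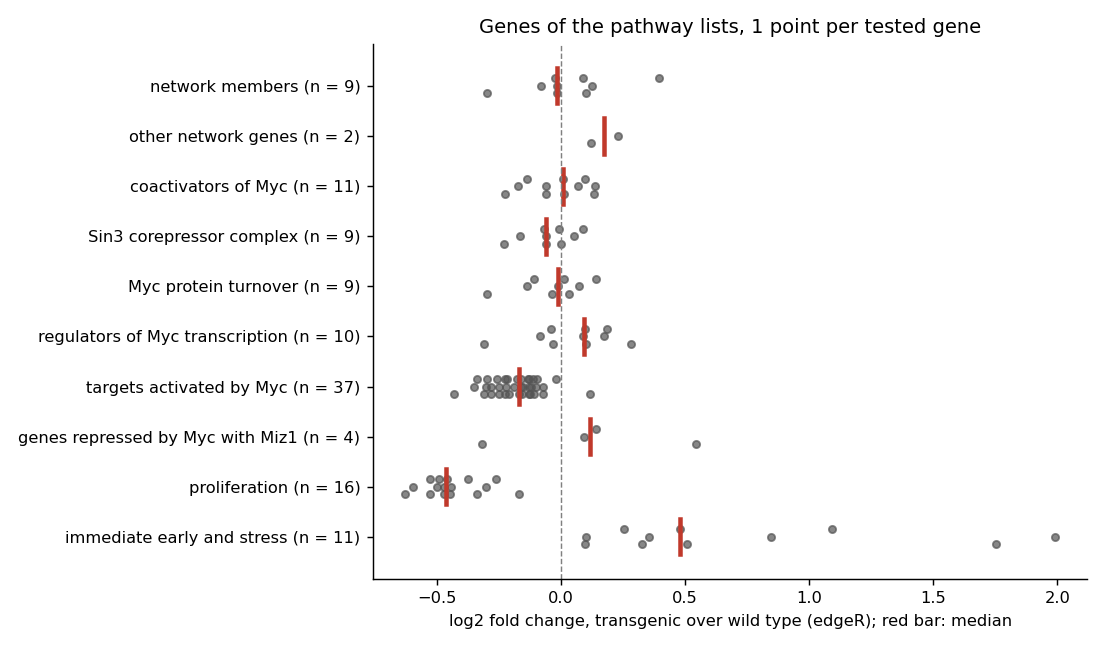
Log2 fold change, transgenic over wild type (x axis), of each tested gene in the network and in the related gene lists, with the median of a list as a red bar. The targets of Myc sit mostly below 0 (36 of 37, median -0.17) and the proliferation genes all below 0 (16 of 16, median -0.47), while the 9 network genes lie on both sides of 0 (median -0.02).

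The target genes were also split by the E-box letters, with no test of the split. Of 31 targets with a sequence, 7 (22.6%) held CACGTG in the 250 bases before the start, against 9.68% of all tested genes with one. These 7 were Hspd1, Ldha, Cdk4, Eif4e, Eif4a1, Impdh2 and Apex1. Their median log2 fold change was -0.16, against -0.18 for the 24 without the letters. Over all genes tested that had a sequence, the median was -0.007 for the 958 with CACGTG and -0.003 for the 8935 without it.

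The pattern of Myc over the 6 libraries was most like that of Jade1, Lcp1, N6amt2, Thnsl1 and Aaas among 10091 other genes with a mean of at least 5 CPM, with Pearson correlations of log2(CPM + 0.5) of 0.996, 0.982, 0.981, 0.977 and 0.975. Slc35a1, Anxa4, Gtf2ird1, 5430427O19Rik and Gm26869 were the most opposed, at -0.981 to -0.965. With 6 points that share library depth and group, and so many genes compared, these correlations are a description of these libraries only.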

How the data were processed

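The study measured RNA of DN3a thymocytes, with libraries made after ribosomal RNA removal per the labels' protocols. TopHat2, Cuffdiff and mm10 are named in the submitters' processing notes, while their versions, the annotation and any use of strand were not given in the sources used here. Per the file headers, the deposited table of 100144 transcripts gives estimated counts (raw fragments) and FPKM values per library, and a scaled fragment signal by the authors that was not used. Per the file headers it also holds the authors' comparison, with a log2 fold change, a test statistic (score), and p-values and q-values of each transcript. Transcript length, in the same file headers, was not used to rescale values. No per-sample column belonged to an unlabelled sample.

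Estimated counts were summed per symbol and rounded. The 197 genes at loci the authors' software marked as failed were left out. filterByExpr (minimum count 10, minimum total 15) chose the genes tested, which were scaled by TMM and tested with edgeR 4.0.16 in R 4.3.3 (quasi-likelihood, no covariate, two-sided, Benjamini-Hochberg over 14653 genes, threshold 0.05). CPM are TMM-scaled, except the summed marker levels and the values of Prelid1 and Psmc3ip, which are relative to the unscaled library total. Standard errors come from the F statistic. Alternatives used DESeq2 1.42.0 and limma 3.58.1 on log2(FPKM + 0.1) and log2(FPKM + 0.5), other filters and scaling, counts per gene ID, the failed loci kept, a replicate block, Y-linked RNA as a covariate, and fewer libraries. Fits were tested on simulated data. Members, lists, alternatives and the naming rule were chosen with earlier results of these data known. The rule named all members, up to 4 genes of each list with the smallest p, and the 5 genes most and least like Myc. A gene that the rule named in 1 list is not reported here. The 8 further targets called by DESeq2, Ccnd2, the targets with an E-box, Mycl, Mlxipl, Prelid1, Psmc3ip and the markers were named after their values were seen. All 31 member transcripts were found in GENCODE M21 by ID.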

Additional observations from a re-analysis of the deposited data

How the results depend on the processing

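Over all genes tested, edgeR called 2 higher and 0 lower. DESeq2 called 167 higher and 326 lower, no filter on low counts gave 26 and 101, a mean FPKM of at least 5 gave 1 higher, limma on log2(FPKM + 0.1) gave 3 and 1, the Y-linked covariate gave 51 and 205, leaving out both libraries with Y-linked RNA gave 64 and 196, and keeping the failed loci gave 73 and 19. Leaving out 1 library gave 1 to 149 higher and 0 to 349 lower, the most without wild-type replicate 1. The replicate block gave 6 higher and 8 lower and called no network gene. Mxd4 lay just over the threshold there, at 0.402 on the log2 scale (edgeR, adjusted p = 0.0521). Same-numbered libraries had correlations of deviations of 0.18, 0.138 and 0.002, and not every library correlated best with its own number, so the numbers were not taken to pair the samples.

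Of the network, 1 gene, Mxd4, was called higher by DESeq2 and without both libraries with Y-linked RNA, and 0 to 1 when 1 library was left out. Targets of Myc called lower numbered 12 by DESeq2, 2 with no filter, 5 with the covariate, 6 without both Y-linked libraries and 0 to 12 without 1 library. Keeping failed loci added 1 higher, Slc7a5, whose wild-type zeros are failed estimates.

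Myc, Max, Mxd3 and Mxd4 kept their direction in all 17 alternatives. Mycn reversed to 0.0044 and 0.0043 in limma (pseudocounts 0.1 and 0.5) and 0.0549 without both Y-linked libraries, Mlx to 0.0753, 0.0743 and 0.1422 in the same settings, and Mxi1 to 0.0452 in the last, and the cause was not tested. Across fits without 1 library, values ran for Mycn from -0.0884 to 0.0418, Mxd1 from -0.03 to 0.1984, Mxi1 from -0.0742 to 0.0827, Mnt from -0.0026 to 0.1434 and Mlx from -0.0776 to 0.0873. The ratio of Myc and Mycn to their antagonists, transgenic minus wild type, was -0.0796 and ran from -0.0983 to -0.0578 without 1 library. Mycl and Mlxipl, at 0 to 20 fragments in a library, were too rare to test at this depth.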
